A study of Mus musculus with 16 samples.

Results

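A set of 36 genes that are commonly used to mark astrocytes was followed through the hippocampus of ageing mice. Each gene was represented by the probe set that carried that gene symbol alone and had the highest mean over 16 arrays. All 36 symbols were found, out of 18193 genes with a symbol of their own on the array. Of the 36 genes, 35 passed the filter on low values and were tested. Lcn2, a secreted iron-carrier protein of reactive astrocytes and neutrophils, did not pass and is described by its values alone. The choice of genes used no measured value of these samples, but it was made with earlier results of these arrays known.

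Astrocytes are the glial cells that take up glutamate and potassium around synapses, wrap blood vessels with water-channel-rich endfeet, and couple to one another through gap junctions. In the hippocampus they convert glutamate to glutamine and supply neurons with metabolic substrates. After injury or inflammation they enter reactive states, in which intermediate filament genes such as Gfap and Vim are typically more abundant. In whole tissue, fewer cells of a type and less RNA per cell cannot be told apart, and this holds for every level given here.

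Hippocampal RNA from individual male mice of 12 months was measured on 16 arrays, 4 in each of 4 groups. SAMP8 mice are a senescence-accelerated line, described by the labels as having memory deficits at this age; 1 group of them received no treatment. Another SAMP8 group received AβPP antisense, an oligonucleotide against the amyloid precursor protein, by the intravenous route, and another SAMP8 group received Random antisense by the same route. The Control group was untreated mice of a 50% backcross of SAMP8 with CD-1 mice, described as free of memory deficits, so that its genetic background differs from SAMP8 and it carries part of the SAMP8 genome. The treatment field of 1 of the 4 Random antisense arrays, replicate 1, reads untreated while its title and source name say Random antisense; the title was followed. Array numbers name mice within a group and were not used to pair mice across groups.

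Before the results, some arrays have to be named because they stood apart. The median correlation of Control 4 with the other arrays was 0.922 and that of AβPP antisense 4 was 0.905, against 0.958 to 0.989 for the other 14. The 3′ minus 5′ difference of the beta-actin control probe sets, a measure of RNA or label integrity, was 3.89 log2 on AβPP antisense 4 and 0.84 to 1.60 on the other 15. On Control 4 the marker lists of leukocytes and of blood were 4.30 and 7.63 log2 above their means over 16 arrays. On the AβPP antisense arrays the choroid plexus list had a median deviation of -2.25 to -0.49 log2, and the thalamus list of -1.77 and -1.47 on replicates 1 and 3. App, the gene that the antisense targets, read 14.19, 14.32, 14.26 and 13.89 log2 with AβPP antisense and 14.43, 14.39, 14.37 and 14.34 with Random antisense. How far any of these differences shapes the astrocyte values was not tested. Many differences whose sign or size changes clearly without Control 4 and AβPP antisense 4 are therefore given both with and without this pair of arrays. A difference given only with all arrays is not thereby shown to be stable.

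The tissue carried the astrocyte programme on every array. The log2 sum of the linear levels of 6 defining genes (Gfap, Aqp4, Aldh1l1, Slc1a2, Slc1a3 and Gja1) lay between 15.34 and 15.88 in all 16 samples. Such a sum mostly follows its brightest probe sets, here Slc1a2 and Gja1, with means of 14.47 and 13.61 log2. It therefore does not show that each gene was steady, as Aqp4 ranged over 2.00 and Gfap over 1.78 log2. Levels of different probe sets are not comparable in amount, because probes differ in affinity. Of the 36 genes, 5 had a mean over 14 log2, 27 lay from 8 to 14, and 4 lay under 8 (Lcn2, Slc7a11, Chrdl1 and Btbd17).

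The first question was whether untreated SAMP8 mice differ from the Control line in their astrocyte transcripts. None of the 35 genes passed an adjusted p of 0.05 in limma's moderated test, adjusted by the Benjamini-Hochberg method over all 23905 tested probe sets. The background was 86 probe sets, or 0.36%, at the same threshold, so that no call among 35 genes is near the share of the whole array. At an unadjusted p under 0.05, 1 gene was higher and 0 were lower, beside 2.34% higher and 1.43% lower of 11465 tested genes. The median difference of the 35 genes was 0.073 log2, with 26 positive and 9 negative, beside a median of 0.044 and 60.2% positive over all tested genes. Without Control 4 and AβPP antisense 4 the median was -0.049, with 14 of 35 positive beside 51.4% of all tested genes, and again no gene passed, with 0.515% of probe sets called. The sign of the median thus rests on Control 4.

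The second question was whether AβPP antisense differs from Random antisense within SAMP8. None of 35 genes passed, against 20 probe sets or 0.0837% of the array. At an unadjusted p under 0.05, 4 genes were higher and 0 lower, beside 5.75% and 3.09% of all tested genes. The median difference was 0.096 log2, with 25 positive and 10 negative, against a median of 0.040 and 56.8% positive over all tested genes. Without Control 4 and AβPP antisense 4 the median was 0.18, with 27 of 35 positive beside 55.3% of all tested genes, and 1 gene, Slc14a1, passed where 0.832% of probe sets did. Without AβPP antisense 2 alone the median was 0.029 log2, so its size rests on single AβPP antisense mice.

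The other contrasts share arrays with these, so their values stand beside them and are not independent of them. AβPP antisense minus untreated SAMP8 gave 0 of 35 genes past the threshold, against 69 probe sets or 0.289%, with a median of 0.12 log2 and 25 positive, beside 55.2% positive of all tested genes. At an unadjusted p under 0.05, 3 genes were higher and 1 lower, beside 5.57% and 4.42% of all tested genes. Without the same pair of arrays, 32 of 35 were positive beside 53.7%, the median was 0.22, and 1 gene, Slc1a3, passed where 1.68% of probe sets did. Without AβPP antisense 2 alone the median was -0.0045 log2, so its sign rests on that mouse. Random antisense minus untreated SAMP8 gave 0 genes of 35, and 0% of the 23905 probe sets passed. Its median was 0.00073 log2, with 18 positive, and 0 genes reached an unadjusted p under 0.05, beside 0.384% higher and 0.654% lower of all tested genes. Without the pair of arrays the count past the threshold was 0 again, with 0% of probe sets called.

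With 4 arrays against 4, intervals were wide. The standard error of a difference had a median of 0.23 log2 over the 35 genes and ran from 0.12 to 0.52. The 95% interval lay wholly within 1 log2 of zero for 30 genes in SAMP8 minus Control and for 29 in AβPP antisense minus Random antisense. It lay within 0.5 log2 for 10 and 7 genes. For most of these genes, then, a change of more than 1 log2 lies outside the interval, while a change of 0.5 log2 could not be detected or set aside.

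**Figure D1:**
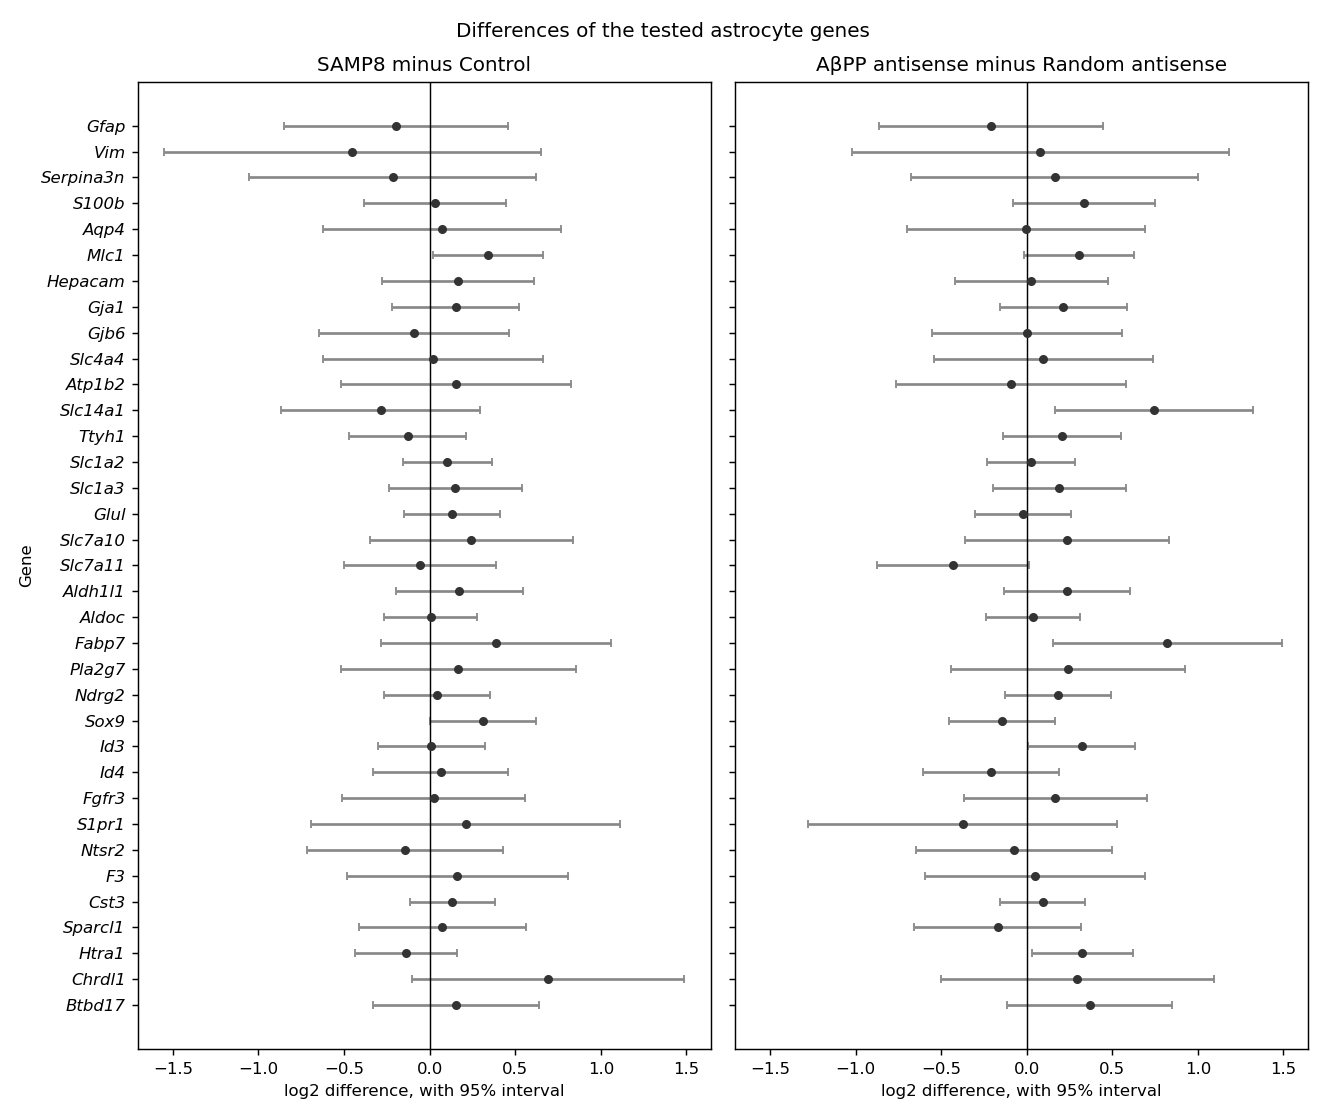
Log2 differences of the 35 tested genes (points) with 95% intervals from the limma fit (bars), SAMP8 minus Control on the left and AβPP antisense minus Random antisense on the right, 4 arrays in each group. In the left panel only Mlc1 has an interval that leaves out zero, and in the right panel Slc14a1, Fabp7, Htra1 and Id3 do; none passed after adjustment.

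Genes whose 4 arrays all lay above or all below the other group's 4 were counted next. In SAMP8 minus Control this was 1 of 35 genes, Sox9, against 4.81% of probe sets. The contrast of AβPP antisense with Random antisense gave 3 of 35, Slc14a1, Mlc1 and Htra1, against 7.58%. In Random antisense minus SAMP8 it was 4, Glul and Slc7a11 above and Slc4a4 and Slc14a1 below, against 8.1%. The contrast of AβPP antisense with SAMP8 gave 4, Htra1, Id3 and Mlc1 above and Id4 below, against 7.96%. A count of 1 to 4 genes of 35 is close to the array's own share in each contrast, so nothing is read from it about the set.

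Among the reactive-state genes, Lcn2 and Vim had the widest ranges over the 16 arrays of all 36 genes. Vim, an intermediate filament of reactive and immature astrocytes and also of endothelial and immune cells, read 10.28, 10.57, 10.43 and 13.46 log2 on Control 1 to 4 and 10.64, 10.94, 10.69 and 10.66 in SAMP8. It read 10.60, 10.60, 11.02 and 10.95 with Random antisense and 10.60, 10.48, 11.19 and 11.21 with AβPP antisense. Control 4 was the highest of 16 and the other 15 arrays lay under 11.3 log2, so the groups overlapped. The difference of SAMP8 from Control was -0.45 log2 (SE 0.52, limma adjusted p 0.999) with Control 4 and 0.31 (adjusted p 0.980) without it and AβPP antisense 4. All 3 tested probe sets of Vim were highest on Control 4, at 13.46, 12.64 and 11.93 log2.

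Gfap, the intermediate filament that names the astrocyte in histology, read 10.91, 10.35, 10.62 and 12.10 on Control 1 to 4 and 10.63, 10.77, 11.00 and 10.82 in SAMP8. It read 11.52, 11.03, 11.03 and 10.97 with Random antisense and 10.33, 11.25, 11.13 and 11.01 with AβPP antisense. Control 4 was again the highest of 16, followed by Random antisense 1, and AβPP antisense 1 was the lowest. The difference of SAMP8 from Control was -0.20 log2 (SE 0.31) with all arrays and 0.17 without the pair of arrays, and neither passed (limma adjusted p 0.999 and 1.00). The difference of AβPP antisense from Random antisense was -0.21 log2 (adjusted p 0.822). The other tested probe sets differed in sign there, with -0.46 log2 for 1426508_at and 0.31 for 1440142_s_at. Both were also highest on Control 4, but lowest on AβPP antisense 4 and on Control 2 in turn.

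Serpina3n, a secreted protease inhibitor that is a widely used marker of reactive astrocytes, read 9.71, 9.52, 9.12 and 10.61 in Control and 9.41, 9.38, 9.53 and 9.77 in SAMP8. It read 9.40, 9.39, 9.33 and 8.89 with Random antisense and 10.02, 9.11, 10.35 and 8.17 with AβPP antisense. The AβPP antisense mice spanned almost the whole range of the study, with replicate 3 second only to Control 4 and replicate 4 the lowest of 16. The difference from Random antisense was 0.16 log2 (SE 0.39, limma adjusted p 0.899) and 0.58 (adjusted p 0.270) without the pair of arrays. Lcn2 read 8.12 on Control 4 and 4.19 on SAMP8 4, and from 2.75 to 2.96 on the other 14 arrays, which is under the filter of 4 log2. S100b, a calcium-binding protein of mature astrocytes, behaved otherwise: it read 11.63, 11.22, 11.23 and 10.65 in Control, where replicate 4 was the lowest of 16. It read 11.21, 11.24, 11.22 and 11.17 in SAMP8, 11.30, 11.20, 11.22 and 11.13 with Random antisense and 11.38, 11.96, 11.11 and 11.73 with AβPP antisense, where replicates 1, 2 and 4 lay above and replicate 3 below all 4 of Random antisense (difference 0.33, limma adjusted p 0.509).

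**Figure D2:**
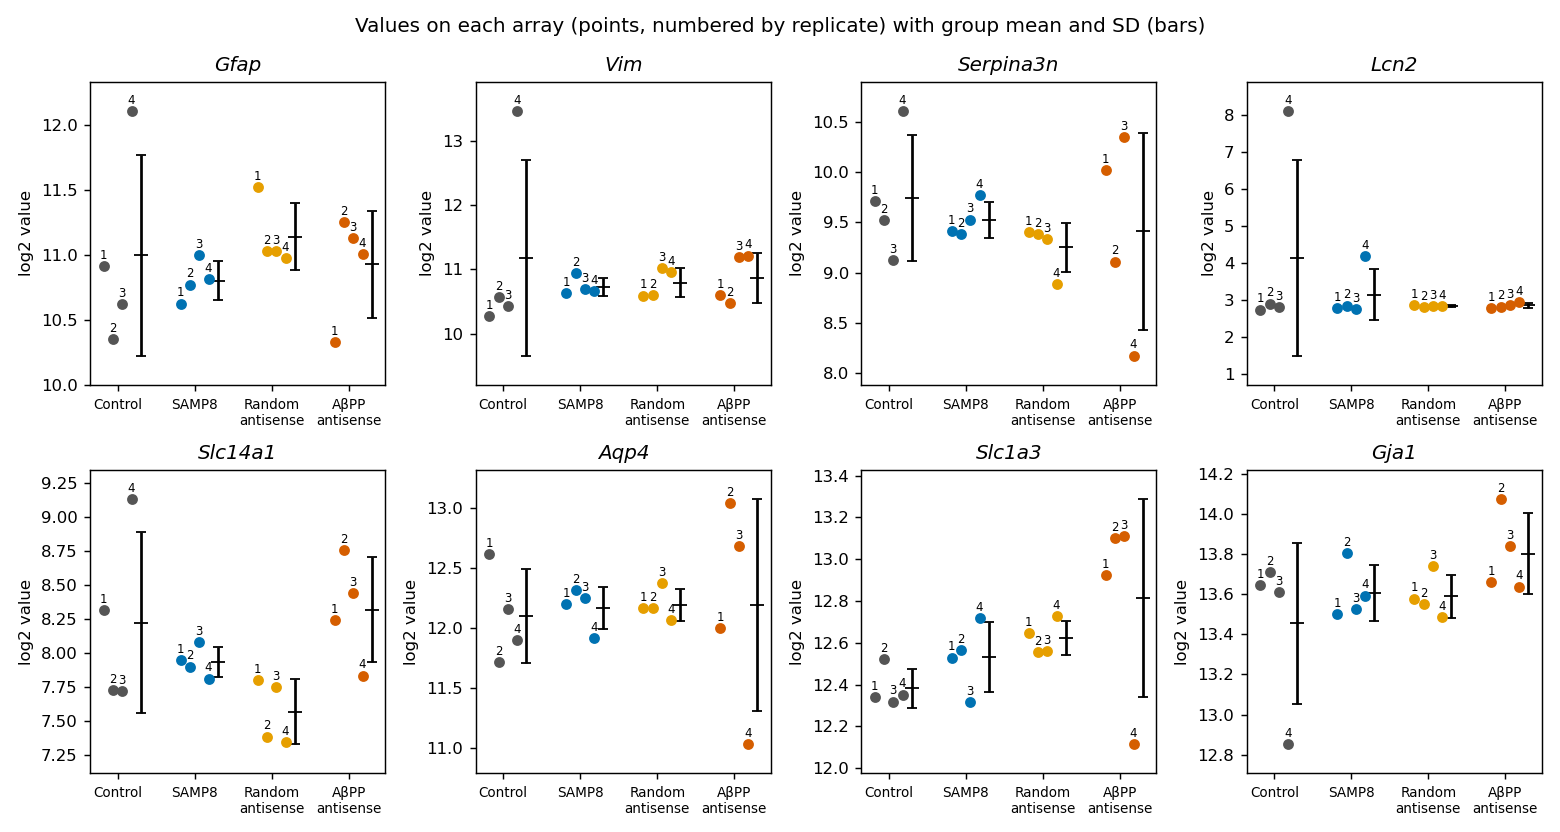
Log2 values of 8 astrocyte genes on each array (points, numbered by replicate), with the group mean and SD (n = 4) at the right of each group; each panel has its own axis. Control 4 is the highest point for Gfap, Vim, Serpina3n, Lcn2 and Slc14a1, and AβPP antisense 4 is the lowest for Aqp4, Slc1a3 and Serpina3n.

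Control 4 stood at either end of the range for many genes. It was the highest of 16 arrays for 4 of the 35 tested genes (Gfap, Vim, Serpina3n and Slc14a1), or 11.4%, against 18% of all tested genes, and also for Lcn2. It was the lowest of 16 for 17 of 35, or 48.6%, against 31.1% of all tested genes. The 6 tested genes of a list of 9 pan-reactive astrocyte genes had a median 2.42 log2 above their means on this array, and between -0.37 and 0.054 log2 on the other 15. Of 38 further astrocyte genes, 28 were lowest there, and the median deviation of that list was -0.69 log2. The neuron list was at -0.68 log2 on the same array, and the leukocyte and blood lists were as high as given above; their part in the astrocyte values was not tested.

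Endfoot and gap junction genes came next. Aqp4, the water channel of endfeet, read 12.61, 11.72, 12.16 and 11.90 in Control, 12.20, 12.31, 12.25 and 11.92 in SAMP8 and 12.16, 12.16, 12.37 and 12.06 with Random antisense. With AβPP antisense it read 12.00, 13.04, 12.68 and 11.03, so that this group held both the highest and the lowest array of the study. The group means of Aqp4 were 12.19 ± 0.13 (SD, n = 4) with Random antisense and 12.19 ± 0.88 (SD, n = 4) with AβPP antisense, and the difference was -0.0025 log2 (limma adjusted p 0.998). Without Control 4 and AβPP antisense 4 the difference was 0.38 (adjusted p 0.438). For SAMP8 minus Control it was 0.072 log2 (95% interval -0.62 to 0.77). The other tested probe sets of Aqp4, 1425382_a_at and 1447745_at, gave -0.42 and -1.86 log2 in AβPP antisense minus Random antisense with all arrays (limma adjusted p 0.837 and 0.360).

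Gja1, the connexin 43 of astrocyte gap junctions, read 13.64, 13.71, 13.61 and 12.85 in Control and 13.50, 13.81, 13.52 and 13.59 in SAMP8. It read 13.58, 13.55, 13.74 and 13.49 with Random antisense and 13.66, 14.07, 13.84 and 13.64 with AβPP antisense. Control 4 was the lowest and AβPP antisense 2 the highest of the 16, and the groups overlapped in both comparisons (limma adjusted p 0.999 and 0.650). The difference of Gja1 between SAMP8 and Control was 0.15 log2 with all arrays and -0.049 without the pair. Gjb6, the connexin 30 that astrocytes use beside it, was also lowest on Control 4, at 9.72 log2, but highest on Control 2, at 11.19; its differences were -0.092 and 2.7e-05 log2 with all arrays and -0.36 and 0.15 without the pair of arrays.

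Mlc1, an endfoot membrane protein that is mutated in a leukodystrophy with cysts, had the smallest p of the set in SAMP8 minus Control. It read 10.94, 10.29, 10.52 and 10.07 in Control, 10.79, 10.76, 10.88 and 10.76 in SAMP8, 10.69, 10.63, 10.79 and 10.67 with Random antisense and 10.90, 11.15, 11.06 and 10.90 with AβPP antisense. SAMP8 lay within the range of Control, because Control 1 was above all 4 SAMP8 arrays. The difference was 0.34 log2 (SE 0.15, limma adjusted p 0.999), and 0.21 (SE 0.13, adjusted p 1.00) without Control 4 and AβPP antisense 4. All 4 AβPP antisense arrays were above all 4 of Random antisense, by 0.31 log2 on average (SE 0.15, adjusted p 0.430). Hepacam, the adhesion protein that holds Mlc1 at the endfoot membrane, differed by 0.17 and 0.027 log2 in the same comparisons, and by -0.019 and -0.16 without the pair.

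Slc14a1, a urea transporter found on astrocytes and on erythroid cells, had the smallest p of the set in AβPP antisense minus Random antisense. With Random antisense it read 7.80, 7.39, 7.75 and 7.35 and with AβPP antisense 8.24, 8.76, 8.44 and 7.83. The groups did not overlap, and their means were 7.57 ± 0.24 (SD, n = 4) and 8.32 ± 0.38 (SD, n = 4). The difference was 0.75 log2 (SE 0.27, 95% interval 0.17 to 1.32, limma adjusted p 0.306). Without Control 4 and AβPP antisense 4 it was 0.91 (SE 0.17, adjusted p 0.0345) and passed. These values are of probe set 1428114_at. The other tested probe set, 1448640_at, gave 0.48 log2 with all arrays (adjusted p 0.680), and its groups overlapped.

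The other mice gave Slc14a1 intermediate or wide values. Untreated SAMP8 mice read 7.95, 7.90, 8.08 and 7.81, all above the 4 Random antisense arrays, and the difference of Random antisense from SAMP8 was -0.36 log2 (adjusted p 1.00). AβPP antisense minus SAMP8 was 0.38 log2 (adjusted p 0.534), and its groups overlapped. With probe set 1448640_at, Random antisense minus SAMP8 was -0.66 log2 and AβPP antisense minus SAMP8 was -0.17, so the latter changed sign. Control read 8.32, 7.73, 7.72 and 9.13, with the array highest in blood markers again the highest of 16. The 3 tested genes of the blood list had median deviations of -0.62 to 3.32 log2 on the AβPP antisense arrays. With Random antisense the deviations were -1.73 to -1.50. The list of 5 holds red cell genes (Hba-a1, Hbb-bt and Alas2) and neutrophil genes (S100a8 and S100a9). The log2 of its summed level was 6.83 to 10.49 with AβPP antisense. With Random antisense it was 5.31 to 5.61, which is low for 3 genes, as the filter for single probe sets was 4 log2. The part of these genes in the difference of Slc14a1 was not tested.

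The remaining channel and transporter genes of this group were Slc4a4, a sodium bicarbonate cotransporter; Atp1b2, a sodium pump subunit; and Ttyh1, a chloride channel family member. Slc4a4 differed by 0.020 and 0.10 log2 in the 2 main comparisons, Atp1b2 by 0.15 and -0.091, and Ttyh1 by -0.13 and 0.21. Without the pair of arrays, Slc4a4 gave -0.16 and 0.42 log2 and Atp1b2 -0.15 and -0.0057. Of the 9 water, ion and gap junction genes, 6 were positive in SAMP8 minus Control and 7 in AβPP antisense minus Random antisense, and none passed. Without the pair of arrays, 3 and 7 of the 9 were positive, so the first count rests on Control 4.

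Of the glutamate genes, Slc1a2 and Glul varied little between groups. Slc1a2, the main glutamate transporter of the forebrain (GLT-1), read 14.45, 14.20, 14.40 and 14.30 in Control and 14.44, 14.39, 14.39 and 14.55 in SAMP8. It read 14.55, 14.48, 14.46 and 14.65 with Random antisense and 14.91, 14.44, 14.53 and 14.36 with AβPP antisense. Its differences were 0.10 log2 for SAMP8 minus Control (95% interval -0.16 to 0.36) and 0.025 for AβPP antisense minus Random antisense (-0.23 to 0.28), so that both intervals lie within 0.5 log2 of zero. Glul, the glutamine synthetase, read 14.08, 14.11, 14.11 and 13.51 in Control, with replicate 4 the lowest of 16, and 14.05, 14.07, 14.09 and 14.13 in SAMP8. It read 14.25, 14.14, 14.19 and 14.17 with Random antisense and 14.06, 14.35, 14.18 and 14.07 with AβPP antisense. The intervals of its differences ran from -0.15 to 0.41 and from -0.30 to 0.26 log2.

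Slc1a3, the glutamate transporter GLAST, read 12.34, 12.52, 12.32 and 12.35 in Control and 12.53, 12.56, 12.31 and 12.72 in SAMP8. It read 12.65, 12.56, 12.56 and 12.73 with Random antisense and 12.92, 13.10, 13.11 and 12.12 with AβPP antisense. AβPP antisense 1 to 3 lay above all 12 arrays of the other groups, and AβPP antisense 4 was the lowest of 16. The difference from Random antisense was 0.19 log2 (SE 0.18, limma adjusted p 0.711) with all arrays and 0.42 (adjusted p 0.0817) without the pair of arrays. The difference from untreated SAMP8 was 0.28 (adjusted p 0.492) and 0.51 (SE 0.10, adjusted p 0.0305), the latter past the threshold.

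Slc7a10, an amino acid exchanger of astrocytes, differed by 0.24 and 0.23 log2 in the 2 main comparisons, and by -0.032 and 0.14 without Control 4 and AβPP antisense 4. Slc7a11, the cystine and glutamate exchanger, had the smallest p of the set in Random antisense minus SAMP8. It read 5.07, 5.09, 4.92 and 5.06 in SAMP8 and 5.19, 5.41, 5.66 and 5.10 with Random antisense, without overlap (0.30 log2, SE 0.21, limma adjusted p 1.00). With AβPP antisense it read 4.81, 5.07, 5.49 and 4.26, and in Control 5.31, 5.12, 5.05 and 4.88. AβPP antisense minus Random antisense was -0.43 log2 (adjusted p 0.421), with AβPP antisense 4 the lowest of the study, and -0.22 without the pair. For Random antisense minus SAMP8 the other tested probe set of Slc7a11, 1420413_at, gave 0.18 log2. Its groups overlapped, and its mean of 4.26 was near the filter.

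Of the 5 metabolic genes, 5 were positive in each main comparison and none passed. Without the pair of arrays, 2 were positive in SAMP8 minus Control and 5 in AβPP antisense minus Random antisense, so the first count rests on Control 4. Aldh1l1, a folate enzyme used to define astrocytes, read 9.51, 9.29, 9.45 and 8.98 in Control and 9.56, 9.55, 9.37 and 9.44 in SAMP8. It read 9.47, 9.49, 9.43 and 9.53 with Random antisense and 9.40, 10.29, 9.43 and 9.73 with AβPP antisense, where replicate 2 alone reached 10.29. Its differences were 0.17 and 0.24 log2 (limma adjusted p 0.999 and 0.612), the first of which was 0.066 without the pair. Fabp7, a fatty acid binding protein of radial glia and astrocytes, read 10.75, 11.16, 11.23 and 10.92 with Random antisense and 11.71, 12.18, 12.27 and 11.18 with AβPP antisense. AβPP antisense 1 to 3 were above all 4 Random antisense arrays and replicate 4 lay among them. The difference was 0.82 log2 (SE 0.31, adjusted p 0.322), the largest of the set in this comparison, and 1.04 (adjusted p 0.119) without the pair.

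In the untreated mice Fabp7 read 11.60, 10.002, 11.34 and 10.33 in Control and 11.16, 11.17, 11.35 and 11.15 in SAMP8. Control 2 and 4 were low and the other Control arrays were near SAMP8, and the difference was 0.39 log2 (limma adjusted p 0.999) and 0.23 without the pair of arrays. Aldoc, the aldolase of astrocytes, differed by 0.0058 and 0.036 log2, Pla2g7, a secreted phospholipase, by 0.17 and 0.24, and Ndrg2, an astrocyte differentiation gene, by 0.041 and 0.18. Without the pair, Aldoc differed by -0.061 and 0.16 log2, Pla2g7 by -0.13 and 0.58, and Ndrg2 by -0.058 and 0.28. The other tested probe set of Aldoc, 1424714_at, differed more. It gave -0.52 and 0.52 log2 with all arrays (limma adjusted p 0.824 and 0.311), without overlap of the groups in either comparison. For AβPP antisense minus SAMP8 it gave 0.73 (adjusted p 0.124).

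Of the 7 transcription factors and receptors, 6 were positive in SAMP8 minus Control and 3 in AβPP antisense minus Random antisense. Without Control 4 and AβPP antisense 4 the counts were 1 (Sox9) and 5, so both rest on these arrays. Sox9, the transcription factor that specifies astrocytes, was the 1 gene without overlap between SAMP8 and Control. It read 8.04, 8.02, 8.01 and 7.63 in Control, 8.29, 8.28, 8.15 and 8.22 in SAMP8, 8.29, 8.11, 8.10 and 8.07 with Random antisense and 8.01, 8.15, 8.27 and 7.56 with AβPP antisense. The means of Control and SAMP8 were 7.93 ± 0.20 (SD, n = 4) and 8.24 ± 0.068 (SD, n = 4), and the difference was 0.31 log2 (SE 0.15, 95% interval -9.0e-05 to 0.62, limma adjusted p 0.999). Without the pair it was 0.21 (SE 0.085, adjusted p 0.694). AβPP antisense minus Random antisense was -0.15 log2 (adjusted p 0.726) and -0.00066 without the pair. For SAMP8 minus Control the other tested probe set of Sox9, 1451538_at, gave 0.40 log2 (limma adjusted p 0.999), and its groups overlapped.

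Id3 and Id4 encode inhibitors of helix-loop-helix factors downstream of bone morphogenetic protein signals. Id3 differed by 0.32 log2 from Random antisense and 0.30 from untreated SAMP8 (limma adjusted p 0.393 and 0.364). Id4 differed by -0.21 and -0.40 (adjusted p 0.684 and 0.336), and by -0.0073 and -0.20 without the pair. The probe sets of Id4 differed in sign, since 1423260_at gave 0.30 log2 against Random antisense and 1423259_at gave -0.37. The receptors differed as follows in the 2 main comparisons. Fgfr3, a fibroblast growth factor receptor, gave 0.023 and 0.17 log2, S1pr1, a sphingosine phosphate receptor shared with endothelium, 0.21 and -0.37, and Ntsr2, the astrocytic neurotensin receptor, -0.14 and -0.075. F3, the tissue factor, gave 0.16 and 0.050. Without the pair of arrays, Fgfr3 gave -0.11 and 0.34 log2, S1pr1 -0.24 and 0.069, Ntsr2 -0.16 and 0.10, and F3 -0.087 and 0.40. The other tested probe set of Fgfr3, 1425796_a_at, had the opposite sign against Random antisense, at -1.20 log2 with all arrays (limma adjusted p 0.417). It read 4.84, 5.73, 5.80 and 2.12 with AβPP antisense and 5.94, 5.77, 5.78 and 5.78 with Random antisense.

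Among the secreted genes, Chrdl1, an antagonist of bone morphogenetic proteins made by astrocytes, had a wide range. It read 5.11, 5.77, 5.12 and 4.60 in Control and 5.63, 6.16, 6.20 and 5.39 in SAMP8. It read 5.71, 6.20, 6.57 and 7.00 with Random antisense and 6.71, 5.91, 6.33 and 7.72 with AβPP antisense, where replicate 4 was the highest of 16. SAMP8 minus Control was 0.69 log2 (SE 0.37, limma adjusted p 0.999), Random antisense minus SAMP8 was 0.53 (adjusted p 1.00) and AβPP antisense minus SAMP8 was 0.83 (adjusted p 0.322). The last was 0.47 (adjusted p 0.459) without the pair of arrays. AβPP antisense minus Random antisense was 0.30 log2 with all arrays and -0.055 without the pair.

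Htra1, a secreted serine protease, had the smallest p of the set over the whole study, in AβPP antisense minus SAMP8. It read 11.23, 11.15, 11.17 and 11.34 in SAMP8, 11.26, 11.36, 11.35 and 11.35 with Random antisense and 11.62, 11.75, 11.52 and 11.73 with AβPP antisense. The AβPP antisense arrays lay above all 8 others of SAMP8 mice, by 0.43 log2 over untreated (SE 0.14, limma adjusted p 0.182) and 0.32 over Random antisense (SE 0.14, adjusted p 0.373). Control read 11.38, 11.79, 11.29 and 10.99, a range that takes in both treated groups. Without the pair of arrays the differences were 0.41 and 0.30 log2, and neither passed (adjusted p 0.0877 and 0.209).

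Btbd17, of which little is known, read 6.31, 6.36, 6.31 and 6.31 in SAMP8, 6.46, 6.44, 6.36 and 6.58 with Random antisense and 6.35, 7.00, 6.33 and 7.63 with AβPP antisense, against 6.32, 6.36, 6.10 and 5.87 in Control. AβPP antisense minus SAMP8 was 0.51 log2 (limma adjusted p 0.319) and 0.24 (adjusted p 0.405) without the pair of arrays, since AβPP antisense 4 was the highest of 16. AβPP antisense minus Random antisense was 0.37 log2 with all arrays and 0.10 without the pair. Cst3, the protease inhibitor cystatin C, differed by 0.13 and 0.093 log2 in the 2 main comparisons, and Sparcl1, a matricellular protein that promotes synapse formation, by 0.073 and -0.17. Without the pair, Cst3 differed by 0.10 and 0.19 log2 and Sparcl1 by -0.091 and 0.10.

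**Figure D3:**
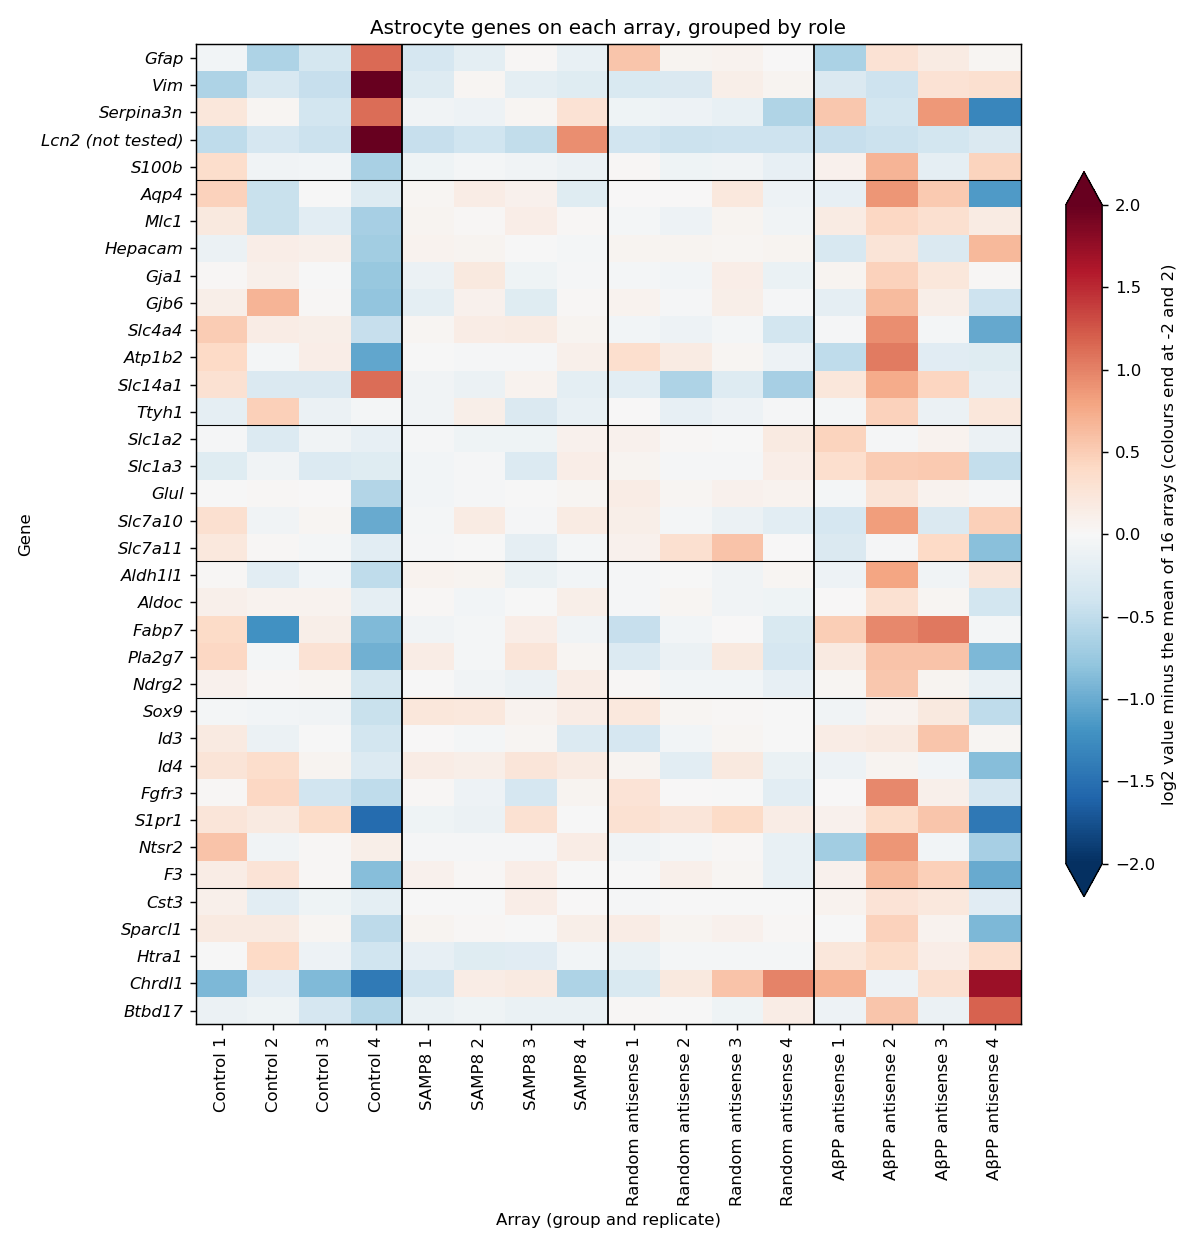
Log2 value of each of the 36 genes on each of the 16 arrays, less the gene's mean over the arrays, in colour; rows are grouped by role in the order of the text, and colours end at 2 log2 from the mean. The SAMP8 and Random antisense columns are pale. Control 4 is the lowest of 16 arrays for 17 of the 35 tested genes and the highest for Gfap, Vim, Serpina3n, Slc14a1 and Lcn2. AβPP antisense 2 is the highest for 16 and AβPP antisense 4 the lowest for 11.

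The spread among mice differed more than the group means did. The median SD of the 35 genes was 0.093 log2 in SAMP8 and 0.10 with Random antisense, against 0.39 in Control and 0.45 with AβPP antisense. Over all tested genes the same medians were 0.11, 0.11, 0.28 and 0.34. Without replicate 4 the medians of the 35 genes were 0.16 in Control and 0.30 with AβPP antisense, beside 0.14 and 0.24 over all tested genes. The widest group was AβPP antisense for 23 genes and Control for 12, and this count was not made over all tested genes.

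Among the AβPP antisense mice, replicates 2 and 4 lay at opposite ends. AβPP antisense 2 was the highest of 16 for 16 of 35 genes, or 45.7%, against 13.8% of all tested genes, and its median over the set was 0.46 log2 above the mean. AβPP antisense 4 was the lowest for 11 of 35, or 31.4%, against 18.7%. The further astrocyte list gave the same order for replicate 2, with 19 of 38 genes highest there, but not for replicate 4, with 3 lowest and 10 highest. The blood list was 3.32 and 2.98 log2 above its mean on these arrays.

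**Figure D4:**
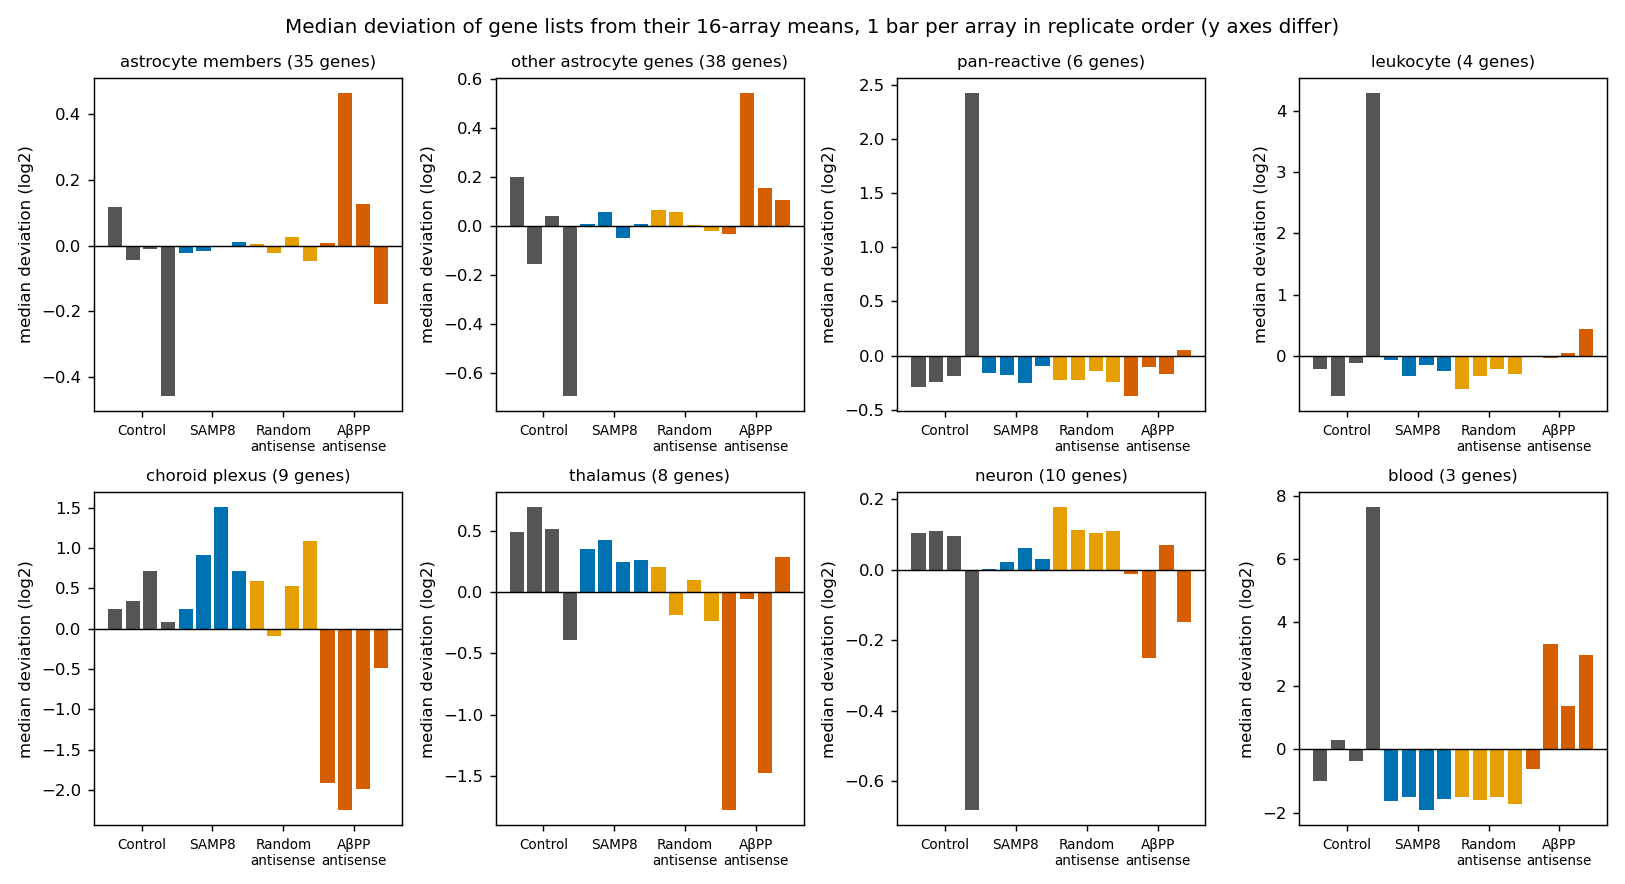
Median deviation of 8 gene lists from their means over 16 arrays, in log2, with 1 bar for each array in replicate order within its group; the y axes differ. The astrocyte genes and the further astrocyte genes are lowest on Control 4 and highest on AβPP antisense 2, and the pan-reactive, leukocyte and blood lists are highest on Control 4.

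Several genes had more than 1 tested probe set, 37 beside the 35 used, and these did not always move alike on the AβPP antisense arrays. Against the mean of AβPP antisense 1 to 3, the probe sets used had a median shift of -0.40 log2 on AβPP antisense 4, ranging from -1.77 to 1.40. The others had a median of -0.56 and ranged from -5.76 to 1.27. For Gja1, probe set 1415801_at was -5.76 log2 away while the probe set used, 1437992_x_at, read 13.64 beside 13.66, 14.07 and 13.84. For Slc1a3, probe set 1426341_at was -3.69 away and 1443749_x_at was 0.43 away. For Aqp4, both further probe sets, 1425382_a_at and 1447745_at, were away by -3.81 and -3.60 log2, and for Atp1b2 1422009_at was away by -3.85. AβPP antisense 1 was low on some of them too. It read 5.11 for Aqp4 1447745_at, 8.68 for Gja1 1415801_at and 7.63 for Atp1b2 1422009_at. With Random antisense they read 7.48 to 7.92, 9.80 to 10.21 and 9.51 to 10.01. For Aqp4 1425382_a_at the same array, at 10.95, lay above Random antisense, at 10.21 to 10.89. With all arrays, AβPP antisense minus Random antisense was -1.86 log2 for 1447745_at, -1.83 for 1415801_at and -1.86 for 1422009_at (limma adjusted p 0.360, 0.471 and 0.337). The disagreement of probe sets is thus not confined to AβPP antisense 4. The beta-actin 3′ minus 5′ difference of AβPP antisense 4 stands beside these values, and its part in them was not tested.

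**Figure D5:**
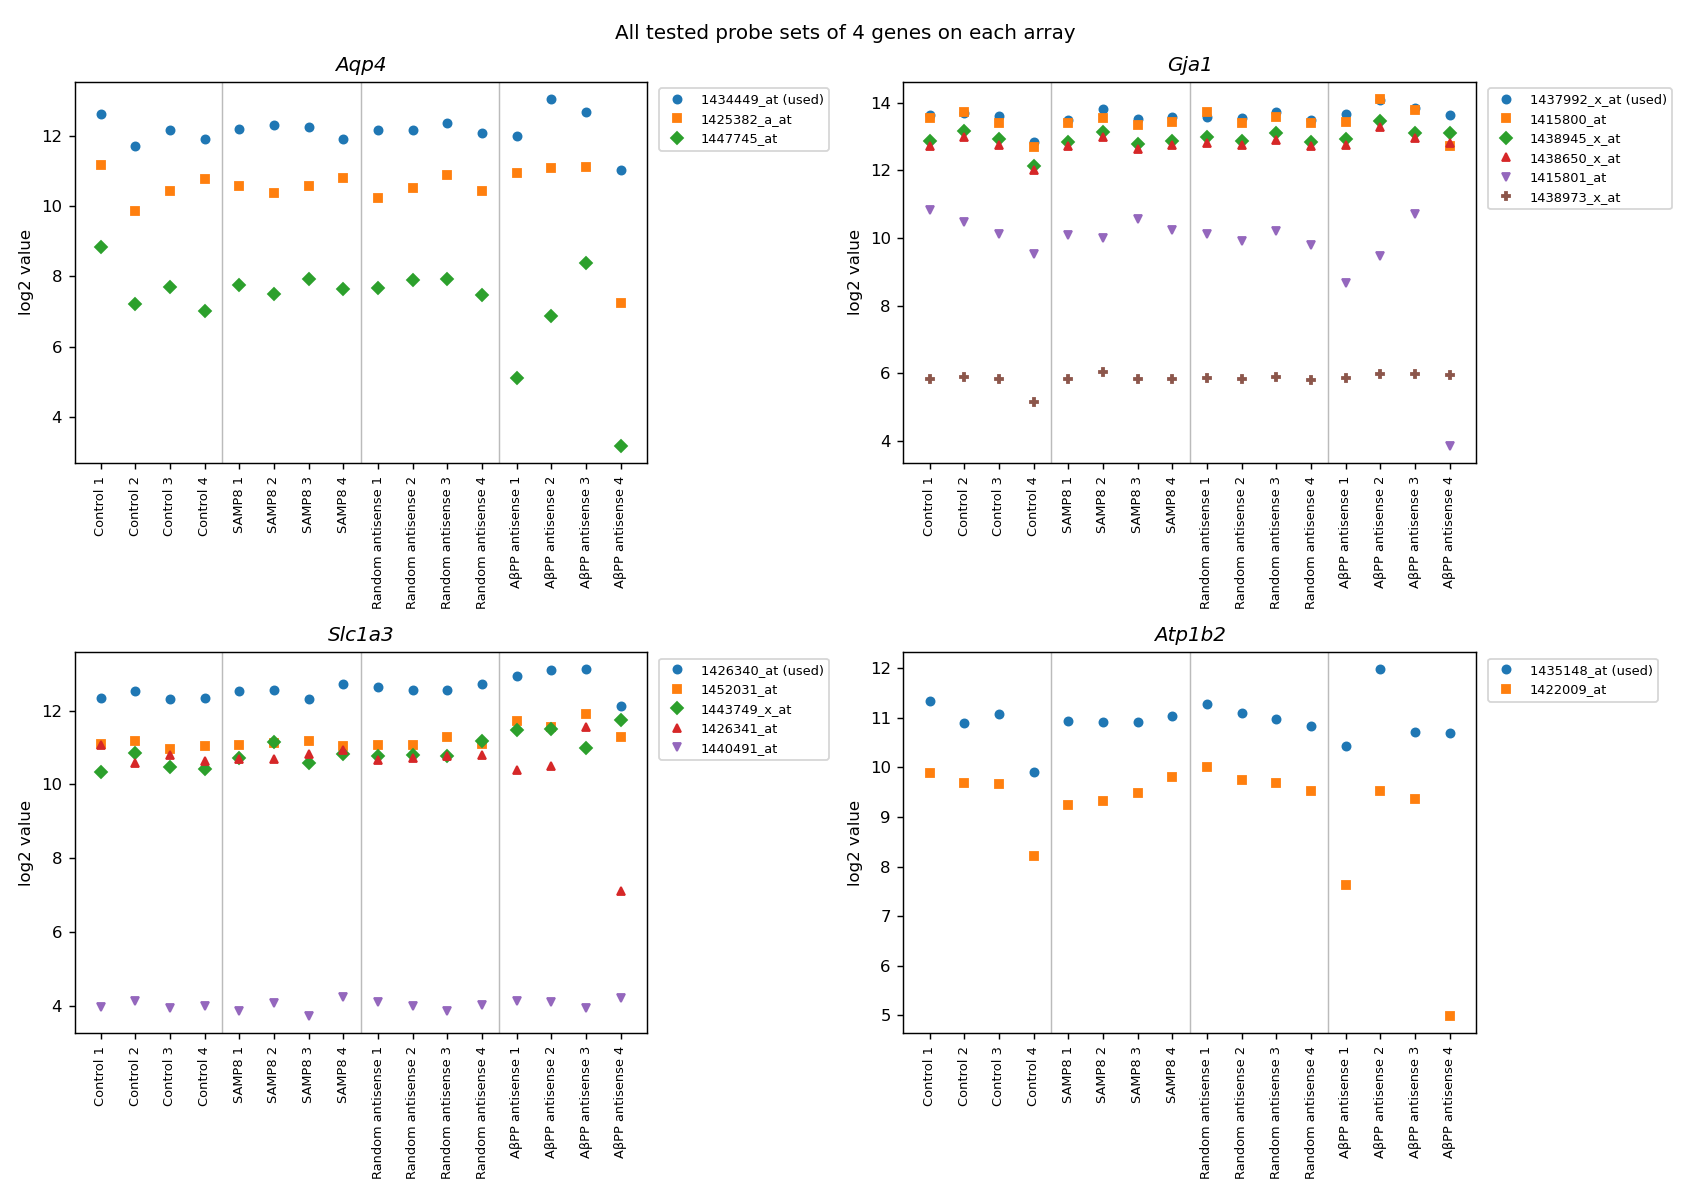
Log2 values of all tested probe sets of Aqp4, Gja1, Slc1a3 and Atp1b2 on each of the 16 arrays (points; symbols and colours mark the probe sets, with the one used for the gene named as used). On AβPP antisense 4, at the far right of each panel, 5 of these probe sets differ by -5.76 to -3.60 log2 from the mean of AβPP antisense 1 to 3, while others of Gja1 and Slc1a3 stay near the other arrays.

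The rest of the astrocyte programme was read from 40 other genes, of which 38 were tested. In SAMP8 minus Control, 0 of 38 passed, beside 0.36% of probe sets. There 34 were positive, beside 60.2% of all tested genes, with a median of 0.17 log2. Without Control 4 and AβPP antisense 4, 20 were positive, beside 51.4%, and the median was 0.012. In AβPP antisense minus Random antisense, 0 passed, beside 0.0837% of probe sets, and 28 were positive, beside 56.8% of all tested genes. The median was 0.15. In AβPP antisense minus SAMP8, 1 of 38 passed, beside 69 probe sets or 0.289% of the array. The gene was Mertk, a receptor by which astrocytes and microglia engulf synapses and debris, and it was higher with AβPP antisense. It read 8.34, 8.52, 8.03 and 8.53 log2 in SAMP8 and 9.21, 8.999, 9.06 and 9.31 with AβPP antisense, without overlap.

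The difference of Mertk was 0.79 log2 (SE 0.14, limma adjusted p 0.0295). Against Random antisense, at 8.50, 8.57, 8.56 and 8.76, it was 0.55 log2 (adjusted p 0.153). Control read 8.68, 8.90, 8.43 and 8.49. Mertk did not pass when only the 8 arrays compared were fitted, with array weights, with the beta-actin difference as a covariate, or without any 1 of SAMP8 1 to 4, Random antisense 1 to 3 or AβPP antisense 1. In the same comparison, the log2 of the summed level of 9 microglia genes was 12.68 to 12.91 with AβPP antisense and 12.40 to 12.49 in SAMP8, with 7 of 9 genes positive and a median difference of 0.38 log2. That of 9 endothelial and mural genes was 11.92 to 12.35 and 11.46 to 11.77, with 8 of 9 positive and a median of 0.34. None of these genes passed, and their part in the difference of Mertk was not tested.

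Of the reactive lists, the pan-reactive genes (6 tested of 9), the A1 list (9 of 12) and the A2 list (4 of 12) had 0 genes past the threshold in any of the 4 contrasts. Their medians in SAMP8 minus Control were -0.63, -0.54 and -0.33 log2, and 0.22, -0.13 and 0.051 without Control 4 and AβPP antisense 4. In AβPP antisense minus Random antisense they were -0.012, 0.33 and 0.18, and -0.065, 0.39 and -0.020 without the pair. Some genes of these lists are also expressed by immune and vascular cells.

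The 5 members below are those with a match to TTCNNNGAA, the binding motif of STAT factors, which include the main transcriptional driver of Gfap and other reactive genes, in the 250 bases before the start of the gene. They are shown so that the matches can be read in their surroundings, beside the values of the same genes. Both strands were searched; the motif reads the same on both. Sequences and positions are from RefSeq on GRCm38.p6, where 29 of the 36 genes were matched, with 34 promoters in all. Capitals mark the match.
Aldoc: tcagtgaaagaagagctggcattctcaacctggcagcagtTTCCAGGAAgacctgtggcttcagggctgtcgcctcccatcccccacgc
Slc1a3: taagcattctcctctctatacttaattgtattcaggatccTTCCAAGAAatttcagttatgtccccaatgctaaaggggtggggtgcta
Slc7a11: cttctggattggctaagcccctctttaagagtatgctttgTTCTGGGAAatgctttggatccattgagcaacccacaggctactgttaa
Ntsr2: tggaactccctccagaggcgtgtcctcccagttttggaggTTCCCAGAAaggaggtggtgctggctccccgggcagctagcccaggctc
Pla2g7: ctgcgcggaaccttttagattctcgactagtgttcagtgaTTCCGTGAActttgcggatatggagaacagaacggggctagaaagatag

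These stretches lie at chr11:78324075-78324163 on the plus strand (Aldoc), chr15:8710855-8710943 on the minus strand (Slc1a3), chr3:50443748-50443836 on the minus strand (Slc7a11), chr12:16653368-16653456 on the plus strand (Ntsr2) and chr17:43568266-43568354 on the plus strand (Pla2g7). Aldoc holds a further match. The motif was in 5 of 34 promoters of the set, or 14.7%, and in 7.02% of 32851 promoters of the same length. On Control 4 these 5 genes read 13.95, 12.35, 4.88, 11.42 and 10.05 log2, of which only Pla2g7 was the lowest of 16. The motif of nuclear factor I, which takes part in astrocyte differentiation, was searched in the same way: its full palindrome was in 0 of 34 promoters, against 0.0365% of all, and its shorter form TTGGC was in 55.9%, against 41.5%. These counts describe letters in a short window and say nothing of binding.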

How the data were processed

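Hippocampal RNA (4 µg per sample, per the labels) from 16 mice was hybridised to Affymetrix mouse arrays with 45101 probe sets. The deposited values are log2 expression values made with GCRMA, per the submitters' processing notes; its version and settings are not given in the sources used here. The number of arrays limits the precision. Here 64 control probe sets were left out, and the 23905 probe sets that exceeded 4 log2 on 4 or more of the arrays entered a fit with limma 3.58.1 (R 4.3.3): 1 fit of 4 groups, eBayes, Benjamini-Hochberg adjustment over all of them, threshold 0.05. Intervals are 95%. Of the probe sets, 34945 carried 1 gene symbol in the platform annotation, 932 several and 9160 none. Figures used matplotlib 3.10.9 (Python 3.11.15).

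Values are given on every array for genes past the threshold, the 3 of smallest p in each contrast, 9 textbook astrocyte genes, the reactive-state genes and genes without overlap that differ by at least 0.3 log2 in the first 2 contrasts. The genes and lists were chosen with earlier results of these data known. On simulated data 45 to 52.5% of 200 changes of 1 log2 and 90 to 94.5% of 2 log2 were recovered among 23905 probe sets. The unchanged probe sets had no difference in group means there, so the 0 wrong calls were fixed in advance. The changes were exact in the group means, so the shares recovered do not give the power on real arrays. Same-numbered mice of 2 groups had correlations of deviations from -0.27 to 0.24, so numbers were not used as pairs. Alternative settings varied the arrays, filter, covariates, weights, variance model, scaling and probe set choice. A further one, without Control 4 and AβPP antisense 2 and 4 together, was chosen after seeing the data, because astrocyte genes were highest or lowest on those arrays.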

Additional observations from a re-analysis of the deposited data

Results flagged for a closer look

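Each of the 36 genes was checked in each of the 4 groups for an array whose gap to its nearest neighbour took up more of the group's range than Dixon's 95% critical value allows. Of 144 groups of 4, 17 had such an array, and chance flags about 1 in 20. Of the 17, 8 were Control 4. Among these, Vim (13.46), an intermediate filament gene, and Lcn2 (8.12), a secreted iron carrier, were high, against 10.28 to 10.57 and 2.75 to 2.91 log2 on the other Control arrays. Aldoc (13.95), Gja1 (12.85), Sox9 (7.63), Glul (13.51), Ndrg2 (12.44) and S1pr1 (7.54) were low on it.

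The further flagged values were spread over the groups. In Control, Slc1a3 was high on replicate 2 (12.52). In SAMP8, Cst3 (15.07) and Fabp7 (11.35) were high on replicate 3, Ntsr2 (11.45) and Lcn2 (4.19) on replicate 4, and Btbd17 (6.36) on replicate 2. With Random antisense, Gfap was high (11.52) and Htra1 low (11.26) on replicate 1, the mouse whose treatment field reads untreated, and Serpina3n was low (8.89) on replicate 4. None of the AβPP antisense values was flagged, although that group had the largest median SD.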

How the results depend on the processing

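Of 34 results for single astrocyte genes, which gave 982 values under alternatives, 929 kept their direction and their side of the threshold, 3 newly passed and 50 changed sign; none of those that changed sign passed in the main fit, and the cause was not tested. Without Control 4 and AβPP antisense 4, probe sets past the threshold numbered 199 in AβPP antisense minus Random antisense and 401 in AβPP antisense minus SAMP8, with 1 astrocyte gene in each; SAMP8 minus Control turned to 0.17 (Gfap), -0.049 (Gja1), -0.016 (Glul), -0.15 (S100b), 0.31 (Vim) and 0.072 (Serpina3n) log2, and AβPP antisense minus Random antisense to 0.38 (Aqp4), 0.0094 (Glul) and -0.035 (Vim).

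A further alternative, without Control 4 and AβPP antisense 2 and 4 together, was chosen after seeing the data. Its arrays were picked because astrocyte genes were highest or lowest on them, it leaves 2 AβPP antisense arrays, and nothing is supported with it. It called 164 probe sets in SAMP8 minus Control with 0 astrocyte genes. In AβPP antisense minus Random antisense it called 1990 probe sets, with 3 astrocyte genes (Slc14a1 0.77, Serpina3n 0.94 and Hepacam -0.35 log2; limma adjusted p 0.0261, 0.0140 and 0.0240) and 6 of the other astrocyte genes. In AβPP antisense minus SAMP8 it called 2005, with 2 astrocyte genes (Slc1a3 0.49 and Hepacam -0.32; adjusted p 0.0240 and 0.0327) and 8 of the others. SAMP8 minus Control turned as without 2 arrays, at 0.17, -0.049, -0.016, -0.15, 0.31 and 0.072 for the same 6 genes, and AβPP antisense minus Random antisense turned to 0.15 (Aqp4) and -0.062 (Aldh1l1).

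The other settings called no astrocyte gene among the 35. With only the 8 arrays compared, 37, 0 and 5 probe sets passed in SAMP8 minus Control, AβPP antisense minus Random antisense and AβPP antisense minus SAMP8, and 0 other astrocyte genes passed. With Random antisense 1 counted as untreated SAMP8, and with a filter over 6 log2, 13 probe sets passed in AβPP antisense minus Random antisense; with no filter, 31 passed in AβPP antisense minus SAMP8. With the beta-actin covariate 59 passed in AβPP antisense minus Random antisense, Aqp4 and Sox9 turned to 0.47 and 0.021, and 0 other astrocyte genes passed. With array weights 295, 35 and 19 passed in SAMP8 minus Control, AβPP antisense minus Random antisense and Random antisense minus SAMP8, and 0 other astrocyte genes; SAMP8 minus Control turned to 0.070 (Gfap), -0.031 (Aqp4), -0.043 (Gja1), -0.011 (Glul), -0.13 (S100b), 0.23 (Vim) and 0.073 (Serpina3n), and Aqp4 to 0.16 in AβPP antisense minus Random antisense. There, centring each array gave 0.029 (Aqp4) and 0.0086 (Glul), quantile normalization 0.012 (Aqp4), and the mean of all tested probe sets -0.19 (Gja1) and 0.050 (Glul).

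Leaving out 1 array at a time called no astrocyte gene among the 35. Probe sets past the threshold ran from 54 to 115 in SAMP8 minus Control, from 11 to 896 in AβPP antisense minus Random antisense and from 16 to 1286 in AβPP antisense minus SAMP8, the last 2 highest without AβPP antisense 3; other astrocyte genes past it in the last ran from 0 to 3. Gene differences that changed sign in SAMP8 minus Control ran from -0.41 to 0.17 (Gfap), -0.055 to 0.24 (Aqp4), -0.049 to 0.24 (Gja1), -0.016 to 0.18 (Glul), -0.15 to 0.18 (S100b), -0.75 to 0.31 (Vim) and -0.42 to 0.072 (Serpina3n). In AβPP antisense minus Random antisense they ran from -0.29 to 0.38 (Aqp4), -0.093 to 0.093 (Slc1a2), -0.086 to 0.013 (Glul), -0.035 to 0.21 (Vim) and -0.15 to 0.58 (Serpina3n).

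With the replicate number as a block, 71, 17, 0 and 63 probe sets passed in the 4 contrasts and 0 of 35 astrocyte genes in each. Same-numbered arrays did not deviate together throughout, but these correlations cannot show whether such samples share more than a number.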
